A study of Rattus norvegicus with 23 samples.

Results

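Hepatocytes cultured in the 3DHL model were compared with hepatocytes cultured as collagen sandwiches (CS). In the 3DHL model, hepatocytes (H) lie under a detachable film of chitosan and hyaluronic acid on which liver sinusoidal endothelial cells (LSECs, L) are seeded. In CS cultures, hepatocytes lie between layers of collagen gel and no other cell type is added. RNA was taken from both at day 12 and measured on Affymetrix rat arrays, 3 arrays for 3DHL hepatocytes and 3 arrays for CS hepatocytes, of 23 arrays in the series. Each of 14217 genes was represented by 1 probe set, the one with the highest mean over all 23 arrays. The remaining arrays hold hepatocytes of monolayers (HM), hepatocytes, LSECs and Kupffer cells (KCs) of a 3D model that also contains KCs (3DHLK), LSECs of the 3DHL model and KCs at day 3.

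The hepatocytes of both groups came from female Lewis rats and were seeded on collagen. Hepatocytes of the 3DHL model were the cells left after LSECs had been removed with antibody-coated magnetic beads, while no bead step is stated for CS cultures, so that the effects of culture, LSECs and bead handling cannot be told apart. Replicate numbers are the only link between arrays that the labels give. They do not say whether the replicates came from separate animals, and p-values then measure only the spread between these arrays. In a bulk sample, fewer cells of a type and less RNA per cell cannot be told apart.

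Hepatocytes carry out the ammonia disposal, plasma protein secretion, lipid synthesis and drug metabolism of the liver, and in culture they tend to lose these functions as they spread and adopt a more epithelial, cytoskeleton-rich state. An overlay of collagen helps to restore polarity and slows this loss. In the sinusoid, hepatocytes face LSECs across the space of Disse, a thin layer of matrix without a dense basement membrane, and exchange growth factors, lipids and vasoactive signals with them.

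The values are log2 expression values, so that a difference of 1 is a 2-fold difference. A gene was called higher or lower in 3DHL hepatocytes where limma's moderated test gave a Benjamini-Hochberg adjusted p under 0.05 over all 14217 genes. Fold changes are given as the larger group mean over the smaller. Array medians were 7.47 to 7.49 in 3DHL and 7.44 to 7.47 in CS hepatocytes, and the largest value on any of the 6 arrays was 14.6 to 14.7. Pearson correlations between replicates over all probe sets were 0.994 in 3DHL and 0.987 to 0.996 in CS hepatocytes, where replicate 1 was the array farthest from the others. The number of arrays limits the precision, and the median standard error of a gene's log2 change was 0.153.

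Some genes varied widely between arrays of the same group. In 3DHL hepatocytes, 51 genes had a range above 1.5 on the log2 scale, and replicate 3 was the highest array for 42 of them and replicate 2 the lowest for 41. Efemp1, which encodes fibulin-3, measured 8.93, 6.03 and 11.34 in the 3DHL arrays, against 4.17, 4.09 and 5.20 in the CS arrays. Msln, which encodes mesothelin, a surface protein of the mesothelium, measured 9.20, 7.44 and 10.60 in 3DHL and 7.17, 7.26 and 7.59 in CS hepatocytes. Both genes kept the order of replicate 3, then 1, then 2 in the 3DHL arrays, as did Upk1b, Ackr3, Ogn and Pdpn. The 8 genes of this kind (these 6, Wt1 and Dcn) were examined after their values had been seen, so their count is only a description. All 8 were called higher in 3DHL, against 12.8% of all genes. Msln, Ogn, Pdpn and Dcn were no longer called when replicate 3 was left out. The fold change of Efemp1 was then 7.95, against 19.4 with all arrays.

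In CS hepatocytes, 75 genes had such a range, and replicate 1 was the highest array for 70 of them and replicate 2 the lowest for 68. These included genes of contractile, matrix-producing cells. Actg2, smooth muscle gamma actin, measured 6.33, 6.60 and 6.82 in 3DHL hepatocytes, against 10.26, 7.58 and 8.95 in CS hepatocytes. Col1a1, the main chain of type I collagen, measured 10.09, 11.04 and 11.48 in 3DHL and 12.24, 10.02 and 10.84 in CS hepatocytes, so that the groups overlapped and the gene was not called (adjusted p = 0.885). Of 10 genes of this kind examined after their values had been seen, 5 were called lower in 3DHL, against 9.03% of all genes. This count is only a description. Actg2 was 5.09-fold lower (adjusted p = 0.00682) and Mgp 5.99-fold lower (adjusted p = 0.0281). Without CS replicate 1, Actg2, Myl9 and Mgp lost their calls (adjusted p = 0.0628, 0.246 and 0.125). Col6a3 and Cnn1 kept theirs at 2.78-fold and 2.34-fold lower.

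**Figure D1:**
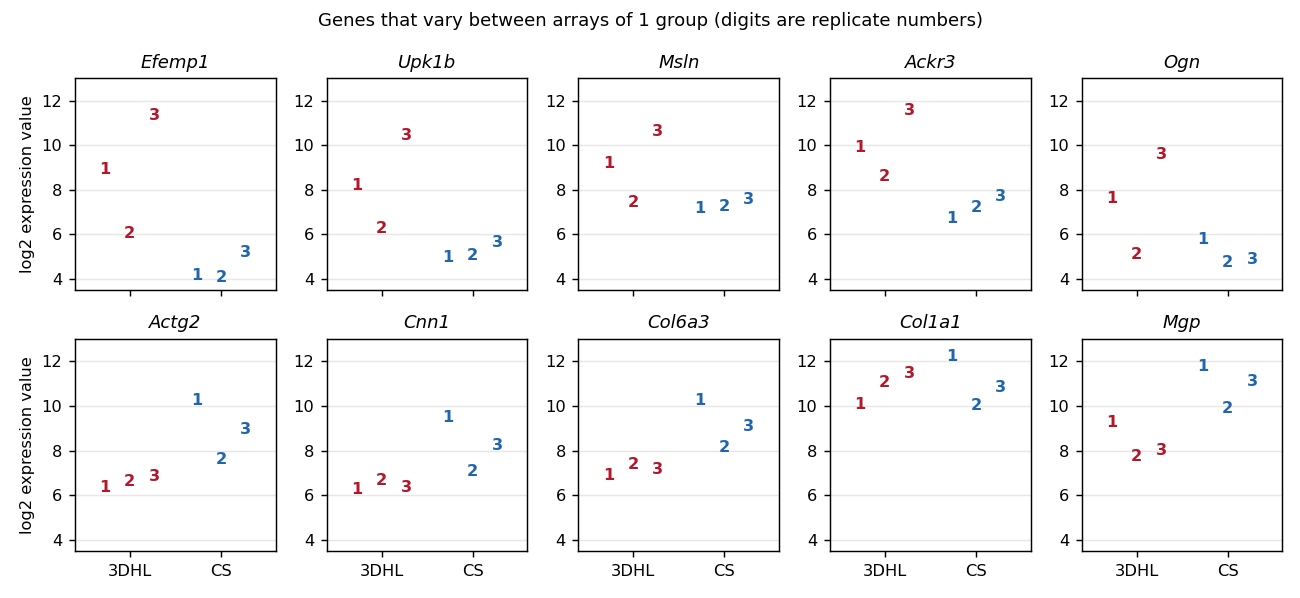
Log2 expression value (vertical axis) of 10 genes in each array of 3DHL hepatocytes (red, left) and CS hepatocytes (blue, right), with the replicate number as the symbol. In the upper row the 3DHL arrays are spread with replicate 3 highest, and in the lower row the CS arrays are spread with replicate 1 highest.

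Marker genes of hepatocytes were measured at high values in both groups. The 27 measured hepatocyte markers averaged 12.65 to 12.75 in the 3DHL arrays and 13.18 to 13.26 in the CS arrays. Alb, albumin, measured 14.46, 14.47 and 14.52 in 3DHL and 14.56, 14.47 and 14.58 in CS hepatocytes, which is near the largest value of the arrays in both groups and was not called different (log2 change -0.05 ± 0.30, SE; adjusted p = 0.923). Ttr, transthyretin, was likewise not called (adjusted p = 0.149). Of the 27 hepatocyte markers, 12 were nevertheless lower and 1, Krt8, was higher in 3DHL hepatocytes (44.4% and 3.7%, against 9.03% and 12.8% of all genes). Their median log2 change was -0.46. The call of Krt8 was lost when any single array was left out, as were those of Apoa1 and Rbp4 among the lower markers. With single arrays left out, 8 to 10 of the markers were lower.

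Of the endothelial markers 0% were higher and 10% lower, of the macrophage markers 15% and 5%, and of the stellate cell and fibroblast markers 9.09% and 13.6%, against 12.8% and 9.03% of all genes. The 30 endothelial markers averaged 6.07 to 6.26 in 3DHL and 6.37 to 6.58 in CS hepatocytes, and 3 of them (S1pr1, Flt1 and Pecam1) were lower and none higher in 3DHL. The call of Pecam1 was lost under cyclic loess and without any single array other than CS replicate 2. Kdr, Stab2, Lyve1 and Vwf, which define endothelium, measured between 5.37 and 6.0 in 3DHL and between 5.48 and 6.09 in CS hepatocytes. None of these 4 was called by the probe set used, but the other probe set of Kdr was called higher in 3DHL. The 20 macrophage markers averaged 6.74 to 7.0 in 3DHL and 6.65 to 6.71 in CS hepatocytes, with Cd68, Fcer1g and Csf1r higher and Cd14 lower in 3DHL. Fcer1g and Csf1r were no longer called without 3DHL replicate 2 or, for Fcer1g, without CS replicate 1. The 22 stellate cell and fibroblast markers averaged 7.64, 7.47 and 7.86 in 3DHL and 8.47, 7.43 and 7.91 in CS hepatocytes, so that the arrays of the 2 groups overlapped.

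**Figure D2:**
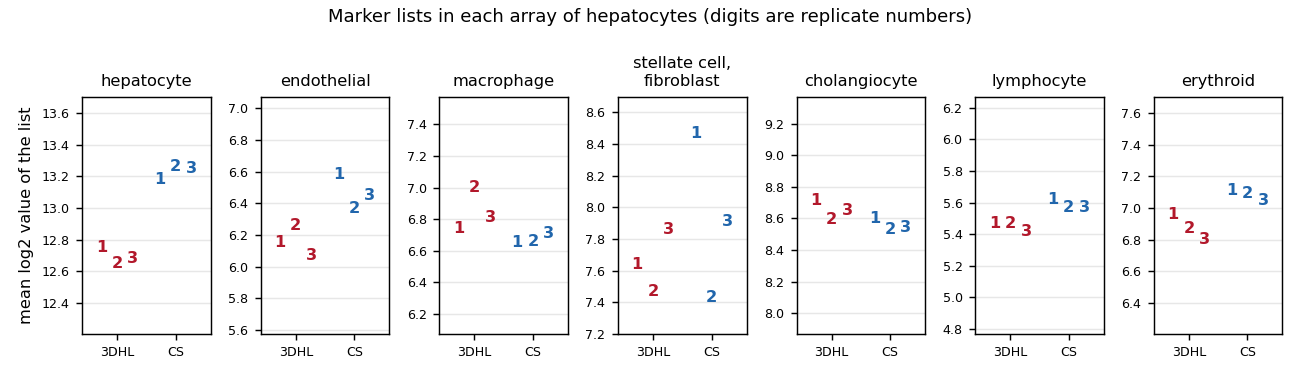
Mean log2 expression value of 7 marker lists (vertical axis, each panel spanning the same range of log2 units) in each array of 3DHL hepatocytes (red, left) and CS hepatocytes (blue, right), with the replicate number as the symbol. The hepatocyte list is 12.65 to 12.75 in 3DHL and 13.18 to 13.26 in CS, and the stellate cell and fibroblast list varies most between CS arrays.

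Over all genes, 1819 were higher and 1284 lower in 3DHL hepatocytes at an adjusted p under 0.05, which is 12.8% and 9.03% of the genes tested and 21.8% in both directions. Of the called genes, 58.6% were higher, but this share was 42.9% when the arrays were centred on housekeeping genes, with 1311 genes higher and 1744 lower. Changes of at least 4-fold were found for 41 higher and 52 lower genes. The median log2 change over all genes was -0.02, and it is the value against which the medians of gene lists can be read.

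The largest rises included genes of muscle, membrane and metabolic enzymes. Car3, carbonic anhydrase 3, measured 10.39, 10.21 and 10.45 in 3DHL hepatocytes, against 6.49, 5.20 and 5.75 in CS hepatocytes (23.2-fold higher, adjusted p = 7.49e-10). Acta1, the actin of skeletal muscle, measured 10.49, 10.67 and 10.64 in 3DHL and 6.41, 6.60 and 6.28 in CS hepatocytes (18.0-fold higher, adjusted p = 8.61e-10). Sdr16c5, a retinol dehydrogenase, measured 9.49, 9.32 and 9.36 in 3DHL and 5.31, 5.43 and 5.28 in CS hepatocytes (16.5-fold higher, adjusted p = 1.25e-14). In each of these genes the groups lay much farther apart than the arrays within a group, of which the CS arrays of Car3 were the most spread. The remaining large rises were Tspan13, Elmod1, Pwwp3b, Cav1 (caveolin-1), Acot1, Pkib, Rassf9, the antisense RNA Thumpd3-as1 and Nefl, the neurofilament light chain. They were 6.76-fold to 11.7-fold higher in 3DHL. Efemp1, Upk1b and Ackr3 rose as well, and their 3DHL arrays varied as described above. Many of these genes were also high in HM hepatocytes, which have neither film nor LSECs. Car3, Acta1 and Sdr16c5 averaged 11.19, 10.28 and 9.51 there, against 10.35, 10.60 and 9.39 in 3DHL hepatocytes. Tspan13, Acot1, Thumpd3-as1, Efemp1, Upk1b and Ackr3 were instead nearer to CS in HM hepatocytes. Tspan13 averaged 4.76 in HM, 3.72 in CS and 7.27 in 3DHL hepatocytes.

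The largest falls included a mucosal defence protein, an immediate early factor and enzymes. Dmbt1, a scavenger receptor protein of mucosal surfaces, measured 5.13, 5.01 and 4.88 in 3DHL hepatocytes, against 9.81, 10.43 and 9.74 in CS hepatocytes (31.7-fold lower, adjusted p = 3.48e-09). Fos measured 5.83, 6.69 and 6.75 in 3DHL and 11.09, 11.17 and 11.54 in CS hepatocytes (28.7-fold lower, adjusted p = 3.91e-12). Npy, neuropeptide Y, measured 8.87, 8.19 and 8.62 in 3DHL and 12.44, 12.72 and 12.64 in CS hepatocytes (16.4-fold lower, adjusted p = 2.01e-10). No array of 3DHL hepatocytes reached the level of any CS array in these genes. Cyp17a1, a steroid hydroxylase, was 13.4-fold lower and S1pr1, a receptor of sphingosine 1-phosphate that is abundant in endothelium, 10.6-fold lower. Rbp7, a cellular retinol-binding protein, was lower by 3.46 on the log2 scale. Fcrla, Cyp2c23, Slk, Fads2, Acmsd, Mat1a, Got1, Apon and Scd2 were 7.49-fold to 9.53-fold lower in 3DHL. S1pr1, Fcrla and Slk each had other probe sets, and none of these were called in the same direction.

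**Figure D3:**
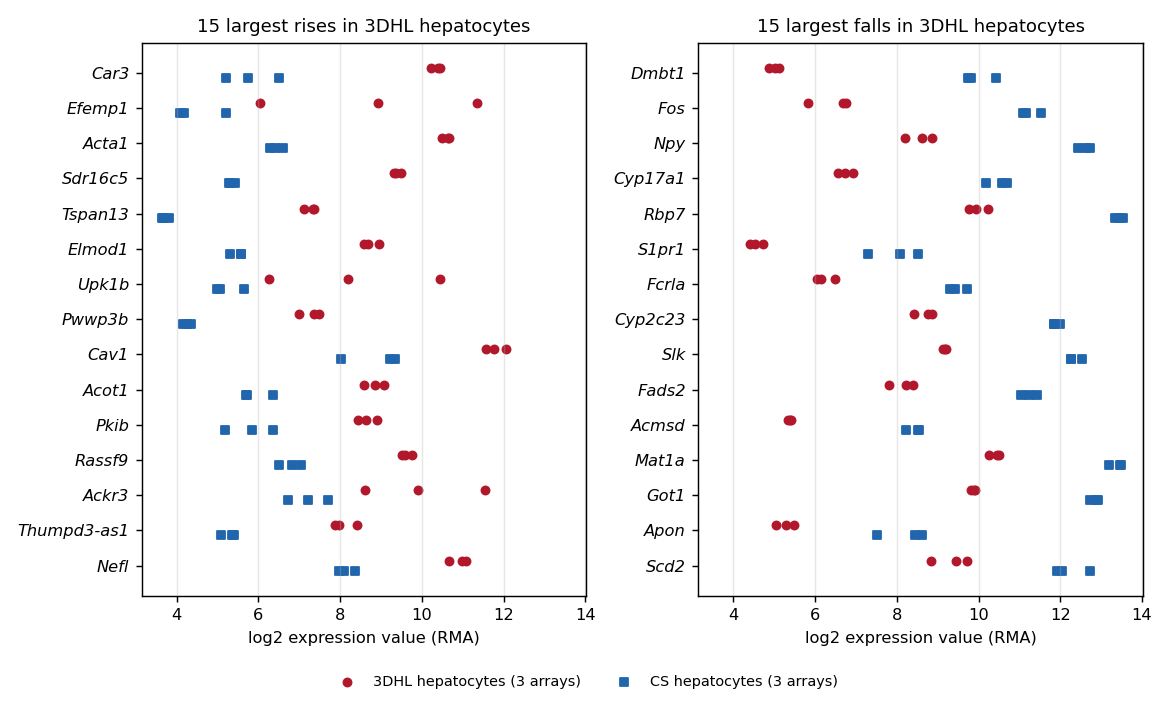
Log2 expression values (horizontal axis) of the 15 genes with the largest rises (left panel) and the 15 with the largest falls (right panel) in 3DHL hepatocytes among called genes without overlap of arrays; red circles are the 3 arrays of 3DHL hepatocytes and blue squares, drawn just under them, the 3 arrays of CS hepatocytes. Efemp1, Upk1b and Ackr3 are the rises with widely spread 3DHL arrays.

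Genes of ammonia disposal and of amino acid breakdown were broadly lower in 3DHL than in CS hepatocytes. Of 50 measured genes of the urea cycle and amino acid catabolism, 41 were lower in 3DHL hepatocytes and none was higher, against 9.03% of all genes lower, and the median log2 change was -1.11. Leaving out any single array kept 39 to 41 of them lower. Cps1, which catalyses the first step of the urea cycle, measured 11.77, 11.67 and 11.69 in 3DHL hepatocytes, against 13.65, 13.68 and 13.67 in CS hepatocytes (3.89-fold lower, adjusted p = 4.78e-09). Ass1, argininosuccinate synthase, measured 12.56, 12.81 and 12.56 in 3DHL and 14.02, 13.96 and 14.03 in CS hepatocytes (2.56-fold lower, adjusted p = 4.02e-06). Replicates of each group differed by 0.25 or less in both genes, while the groups lay more than 1 unit apart.

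Genes of the transport and later steps were lower as well. Otc (ornithine transcarbamylase), Slc25a15 (the mitochondrial ornithine carrier), Asl and Arg1 (arginase) were lower by 1.96, 2.03, 1.29 and 1.14 on the log2 scale. Mat1a, the methionine adenosyltransferase of differentiated hepatocytes, measured 10.50, 10.45 and 10.25 in 3DHL hepatocytes, against 13.20, 13.47 and 13.48 in CS hepatocytes (7.89-fold lower, adjusted p = 1.86e-10). Hgd, which opens the ring of homogentisate in tyrosine breakdown, measured 9.89, 9.41 and 9.81 in 3DHL and 12.10, 12.39 and 12.39 in CS hepatocytes (6.01-fold lower, adjusted p = 3.13e-11). Got1, aspartate aminotransferase, was 7.79-fold lower, Sds, serine dehydratase, 4.95-fold lower and Tat, tyrosine aminotransferase, 2.69-fold lower. Glul, glutamine synthetase, which captures ammonia around the central vein, was not called different (10.95, 11.02 and 11.18 in 3DHL and 11.14, 10.73 and 10.87 in CS hepatocytes; adjusted p = 0.487).

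Genes that are zonated along the liver lobule were counted by zone. Periportal genes were lower in 3DHL hepatocytes for 14 of 16 measured members and higher for none (median log2 change -1.25). Several of these, such as Cps1, Ass1 and Sds, belong to the amino acid list as well. Among 18 pericentral and WNT genes, 5 were higher and 4 lower, against 12.8% of all genes higher and 9.03% lower, with a median of -0.14. The higher members were Car3, Cyp1a2, Aldh1a1 (a retinaldehyde dehydrogenase, 3.97-fold higher), Avpr1a and Rgn, and the lower members were Cldn2 (a pore-forming claudin, 3.80-fold lower), Cyp2e1, Slc1a2 and Oat. The calls of Rgn and Oat were each lost without some single arrays. Axin2, a target of WNT signaling, was not called (adjusted p = 0.532).

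In glucose metabolism, 7 of 32 genes were lower (21.9%, against 9.03% of all genes) and 1 was higher in 3DHL hepatocytes. The median log2 change was -0.16. The lower genes included enzymes of gluconeogenesis. Pck1, phosphoenolpyruvate carboxykinase, measured 11.66, 11.29 and 11.45 in 3DHL and 13.57, 13.40 and 13.61 in CS hepatocytes (4.18-fold lower, adjusted p = 1.31e-05). Fbp1, fructose bisphosphatase, was 3.71-fold lower, Pc, pyruvate carboxylase, was lower by 1.23 on the log2 scale, and Pklr, the pyruvate kinase of the liver, was 2.13-fold lower. Ldhb, a lactate dehydrogenase subunit, was the gene that rose (1.89-fold, adjusted p = 0.000119). Hk2, the hexokinase of proliferating cells, and Slc2a1, a glucose transporter, were not called (adjusted p = 0.851 and 0.271).

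**Figure D4:**
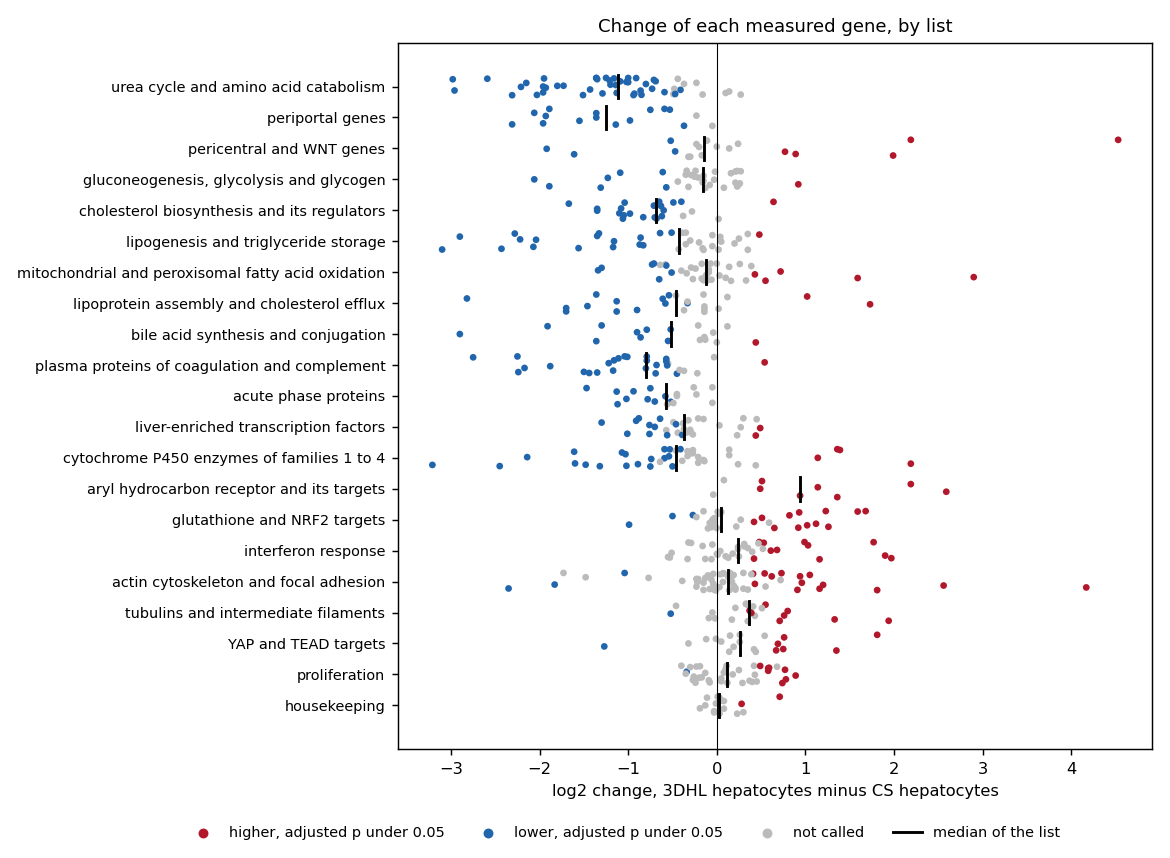
Log2 change (horizontal axis, 3DHL hepatocytes minus CS hepatocytes) of every measured gene of 21 lists, 1 row per list, with genes spread vertically only for legibility; red genes were called higher, blue genes lower and grey genes were not called, and the black bar is the list's median. Lists of amino acid, cholesterol and plasma protein genes lie mostly left of 0 and the aryl hydrocarbon receptor list right of it.

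Genes along the pathway of cholesterol synthesis were lower in 3DHL than in CS hepatocytes. Of 24 measured genes of cholesterol biosynthesis and its regulators, 20 were lower (83.3%, against 9.03% of all genes) and 1 was higher in 3DHL hepatocytes. The median log2 change was -0.69, and 17 to 19 were lower when single arrays were left out. Insig1, which holds the sterol sensor in the endoplasmic reticulum and is itself a sterol-regulated gene, measured 10.72, 10.42 and 10.27 in 3DHL hepatocytes, against 11.92, 12.43 and 12.06 in CS hepatocytes (3.18-fold lower, adjusted p = 6.82e-08). Sqle, squalene epoxidase, measured 10.14, 10.08 and 9.93 in 3DHL and 10.93, 11.35 and 10.99 in CS hepatocytes (2.06-fold lower, adjusted p = 5.63e-05). In both genes every 3DHL array lay below every CS array. Idi1, isopentenyl diphosphate isomerase, and Srebf1, the transcription factor of lipid synthesis, were each 2.55-fold lower. Ggps1, which diverts farnesyl diphosphate towards protein prenylation, was the gene that rose (1.55-fold, adjusted p = 0.00374). Dhcr7, Insig2 and Scap were not called.

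The promoters of these genes were searched for CCAAT, the box bound by NF-Y, on both strands, in the window from 250 bases before to 50 bases after the start of each gene (RefSeq, GRCr8). Of 24 genes, 20 had a promoter in the table used, and 16 of these contained the box, as did 37.5% of all 33469 windows. It was present in 14 of the 16 promoters of lower genes, in the promoter of Ggps1 and in 1 of 3 promoters of genes not called. Stretches of 60 bases upstream of the start are shown for the 3 genes of the list with the largest falls and for Nsdhl, a sterol dehydrogenase (lower by 0.63 on the log2 scale) whose stretch holds the box 2 times. They are written 5′ to 3′ on the strand of the gene, with the box in capitals (ATTGG where it lies on the other strand).
Insig1 (chr4:8057930-8057989, minus strand): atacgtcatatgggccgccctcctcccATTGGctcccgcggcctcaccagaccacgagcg
Idi1 (chr17:66547527-66547586, minus strand): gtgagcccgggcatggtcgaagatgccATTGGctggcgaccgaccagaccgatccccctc
Srebf1 (chr10:45529301-45529360, minus strand): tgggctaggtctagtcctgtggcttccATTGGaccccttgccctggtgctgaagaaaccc
Nsdhl (chrX:155817268-155817327, plus strand): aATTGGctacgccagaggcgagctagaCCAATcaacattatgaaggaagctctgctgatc
A match to these letters is a description of the sequence and not a measured binding site.

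Genes of fatty acid synthesis moved in the same direction. Of 35 genes of lipogenesis and triglyceride storage, 17 were lower (48.6%, against 9.03% of all genes) and 1 higher, with a median log2 change of -0.43. Fads2, the delta-6 desaturase, measured 8.39, 8.23 and 7.80 in 3DHL hepatocytes, against 11.44, 11.23 and 11.04 in CS hepatocytes (8.55-fold lower, adjusted p = 2.83e-11). Fasn, fatty acid synthase, measured 10.32, 10.26 and 10.55 in 3DHL and 11.68, 12.12 and 12.02 in CS hepatocytes (2.95-fold lower, adjusted p = 1.5e-07). Every array of 3DHL hepatocytes lay below every CS array in both genes. The desaturases Scd2 and Scd were 7.49-fold and 4.10-fold lower and Pnpla3, a lipid droplet lipase, was 5.37-fold lower. Plin2, a lipid droplet coat protein, was 1.39-fold higher, but not when all of its probe sets were averaged.

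Of 37 genes of fatty acid oxidation, 5 were higher and 7 lower (13.5% and 18.9%, against 12.8% and 9.03% of all genes). Only 2 to 3 were higher when single arrays were left out. The median log2 change was -0.12, and Cpt1a, the rate-controlling enzyme, was not called (adjusted p = 0.723). The members that rose were led by Acot1, a thioesterase of long-chain acyl-CoA, which measured 8.58, 9.07 and 8.84 in 3DHL hepatocytes, against 5.73, 5.70 and 6.36 in CS hepatocytes (7.46-fold higher, adjusted p = 1.86e-10). Cpt1b, the muscle form of the carnitine transferase, was 3.00-fold higher, while Ehhadh and Echs1, which act in the chain-shortening cycle, were 2.53-fold and 2.47-fold lower. Of 38 respiratory chain genes, 7 were lower (18.4%, against 9.03% of all genes) and none higher, with a median of -0.19.

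Lipoprotein and bile acid genes were mostly lower. Of 23 lipoprotein genes, 12 were lower and 2 higher in 3DHL hepatocytes (52.2% and 8.7%, against 9.03% and 12.8% of all genes). Apoc1, a small apolipoprotein of triglyceride-rich particles, measured 11.05, 10.72 and 10.99 in 3DHL and 13.75, 13.69 and 13.78 in CS hepatocytes (7.08-fold lower, adjusted p = 1.11e-10). Angptl4, an inhibitor of lipoprotein lipase, measured 11.44, 11.81 and 11.78 in 3DHL and 9.77, 9.93 and 10.15 in CS hepatocytes (3.31-fold higher, adjusted p = 7.11e-08). Both differences were far larger than the spread of replicates. Apob, the core protein of these particles, was not called (adjusted p = 0.245), but its other probe set was called lower.

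Of 17 bile acid genes, 9 were lower and 1 was higher (52.9% and 5.88%, against 9.03% and 12.8% of all genes). Cyp7a1, the rate-limiting enzyme of bile acid synthesis, measured 4.80, 4.19 and 4.65 in 3DHL hepatocytes, against 6.77, 7.86 and 7.71 in CS hepatocytes (7.48-fold lower, adjusted p = 9.67e-08). Cyp8b1, which sets the share of cholic acid, was 2.47-fold lower and Baat, which conjugates bile acids, 2.56-fold lower. Among 23 transporters, 5 were lower and 2 higher (21.7% and 8.7%). Slc10a1, the sodium-dependent uptake carrier of bile acids, was 3.35-fold lower. The canalicular pumps Abcb11 and Abcc2 were not called (adjusted p = 0.246 and 0.0642), although the arrays of the groups did not overlap. Abcb11 measured 10.84, 10.71 and 10.75 in 3DHL and 11.07, 11.40 and 11.26 in CS hepatocytes. Abcc2 measured 13.68, 13.78 and 13.73 in 3DHL and 13.40, 13.26 and 13.32 in CS hepatocytes.

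Genes of secreted plasma proteins were lower as a group. Of 29 coagulation and complement genes, 23 were lower (79.3%, against 9.03% of all genes) and 1 higher, with a median log2 change of -0.80. Plg, plasminogen, measured 8.44, 8.29 and 8.63 in 3DHL hepatocytes, against 10.85, 11.54 and 11.21 in CS hepatocytes (6.72-fold lower, adjusted p = 1.11e-10). C3, the central complement component, measured 12.10, 11.92 and 11.99 in 3DHL and 13.07, 13.44 and 13.16 in CS hepatocytes (2.33-fold lower, adjusted p = 7.88e-07). The 2 groups were separate in both genes. The chains of the complement inhibitor C4b-binding protein, C4bpb and C4bpa, were 4.76-fold and 4.72-fold lower, and F9, coagulation factor IX, was 2.06-fold lower. Among 18 acute phase genes, 10 were lower (55.6%, against 9.03% of all genes) and none higher. Itih4, Lcn2 and Cp led them at 2.76-fold, 2.18-fold and 2.17-fold lower, while A2m and Orm1 were not called (adjusted p = 0.877 and 0.904).

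Factors that set hepatocyte identity were lower by smaller amounts. Of 31 liver-enriched transcription factors, 11 were lower and 2 higher (35.5% and 6.45%, against 9.03% and 12.8% of all genes). The median log2 change was -0.37. Hnf4a measured 11.21, 11.01 and 11.17 in 3DHL hepatocytes, against 11.84, 11.80 and 11.87 in CS hepatocytes (1.63-fold lower, adjusted p = 0.00434). Nr5a2, a nuclear receptor that drives bile acid genes, was 2.46-fold lower, Foxa3 2.01-fold lower and Rxra, the shared partner of many nuclear receptors, 1.88-fold lower. Cebpa was not called (adjusted p = 0.929), and the 2 higher members, Ahr and Creb3l3, lost their calls under other scalings.

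Cytochrome P450 enzymes of families 1 to 4, which oxidise drugs, steroids and fatty acids, moved both ways. Of 39 measured, 19 were lower and 4 higher in 3DHL hepatocytes (48.7% and 10.3%, against 9.03% and 12.8% of all genes). The median log2 change was -0.46. Cyp2c23, an arachidonic acid epoxygenase, measured 8.77, 8.43 and 8.86 in 3DHL hepatocytes, against 11.85, 11.99 and 11.84 in CS hepatocytes (9.25-fold lower, adjusted p = 1.12e-12). Cyp2c12, the female-predominant form in rats, measured 8.74, 8.58 and 9.36 in 3DHL and 10.60, 12.05 and 11.38 in CS hepatocytes (5.45-fold lower, adjusted p = 1.72e-06). Cyp2c11, the male-predominant form, measured 7.56, 7.24 and 7.75 in 3DHL and 6.19, 6.04 and 6.15 in CS hepatocytes (2.62-fold higher, adjusted p = 3.36e-05). The 3 genes separated the groups without overlap. Cyp2e1, which metabolises ethanol, was 3.04-fold lower, and Cyp3a23-3a1, an inducible CYP3A, was not called (adjusted p = 0.66). Members of these subfamilies are similar in sequence, and shared binding to their probe sets was not tested.

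The other higher P450s were those controlled by the aryl hydrocarbon receptor (AhR), a ligand-activated sensor of aromatic compounds. Of 9 measured genes of this list, 7 were higher and none lower, against 12.8% of all genes higher, with a median log2 change of 0.94. Cyp1a2 measured 9.50, 9.62 and 9.50 in 3DHL hepatocytes, against 7.22, 7.54 and 7.30 in CS hepatocytes (4.55-fold higher, adjusted p = 6.89e-09). Cyp1a1 measured 11.99, 12.10 and 12.14 in 3DHL and 10.88, 10.82 and 11.12 in CS hepatocytes (2.20-fold higher, adjusted p = 0.00943). Aldh3a1, an aldehyde dehydrogenase induced through AhR, measured 10.21, 10.12 and 10.18 in 3DHL and 7.60, 7.72 and 7.41 in CS hepatocytes (6.04-fold higher, adjusted p = 1.11e-10). Tight replicates stood well above the CS arrays in all 3 genes. Cyp1b1 was 2.56-fold higher, although CS replicate 1 (6.82) lay above 3DHL replicate 2 (6.62). Ahrr, the AhR repressor, was not called (adjusted p = 0.866). The letters TNGCGTG of the dioxin response element, which AhR binds, were searched on both strands of the promoter windows used for the cholesterol genes. They were present in 2 of the 7 promoters of the list that the table held (Cyp1b1 and Ahrr), in 1 of 5 promoters of higher genes and in 4.89% of all windows.

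Of 32 genes of the NRF2 response, which supplies glutathione and detoxifies electrophiles, 12 were higher and 3 lower (37.5% and 9.38%, against 12.8% and 9.03% of all genes). Slc7a11, the cystine importer, measured 9.84, 9.88 and 10.17 in 3DHL hepatocytes, against 8.21, 8.34 and 8.31 in CS hepatocytes (3.20-fold higher, adjusted p = 2.99e-09). Gclc, which makes the first bond of glutathione, measured 10.65, 10.70 and 10.72 in 3DHL and 9.45, 9.38 and 9.55 in CS hepatocytes (2.34-fold higher, adjusted p = 3.38e-08). The groups were separated by more than 1 log2 unit in both. Hmox1, heme oxygenase, was 2.39-fold higher, and the glutathione transferases Gsta4 and Gstp1 were 3.02-fold and 2.17-fold higher. The median of the list was 0.05, and Keap1, Gclm, Gpx1 and Cat were among the 17 members not called. Sod2, the mitochondrial superoxide dismutase, was the largest fall in the list (1.98-fold lower, adjusted p = 1.58e-06). Of 45 conjugating enzymes, 15 were lower and 5 higher (33.3% and 11.1%), led by Nnmt, nicotinamide methyltransferase, at 4.63-fold lower.

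In the growth hormone and IGF axis, 12 of 28 genes were lower and 3 higher (42.9% and 10.7%, against 9.03% and 12.8% of all genes). Igf1, the hormone that the liver releases under growth hormone, measured 9.74, 9.66 and 9.68 in 3DHL hepatocytes, against 11.72, 12.17 and 11.82 in CS hepatocytes (4.64-fold lower, adjusted p = 4.48e-09). Igfbp4 was 5.57-fold lower and Igfbp3, the main carrier of IGFs in blood, 3.32-fold higher (adjusted p = 2.1e-06). The receptors Ghr and Prlr were 1.49-fold and 2.40-fold lower, and Socs2 and Cish, which growth hormone induces through STAT5, were lower by 0.92 and 0.67 on the log2 scale.

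Immediate early genes, which cells switch on within minutes of a stimulus, did not move as 1 block. Of 29 measured, 8 were lower and 4 higher in 3DHL hepatocytes (27.6% and 13.8%, against 9.03% and 12.8% of all genes). Beside Fos, Fosb measured 4.43, 5.65 and 4.60 in 3DHL hepatocytes, against 8.17, 7.14 and 8.04 in CS hepatocytes (7.42-fold lower, adjusted p = 3.81e-06). Fosl2, of the same family, measured 9.19, 9.42 and 9.29 in 3DHL and 8.35, 8.12 and 8.26 in CS hepatocytes (2.08-fold higher, adjusted p = 8.81e-05). Members of the FOS family thus lay on opposite sides of the CS arrays without overlap. Fosl1 was 1.68-fold higher and Egr1 1.96-fold lower, and Jun, Myc and Atf3 were not called (adjusted p = 0.138, 0.324 and 0.979), although 1 of 2 other probe sets of Jun was called higher.

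Among 51 chemokines and cytokines, 9 were lower and 6 higher (17.6% and 11.8%, against 9.03% and 12.8% of all genes). Il33, an alarmin, was 3.36-fold lower, and the neutrophil attractants Cxcl2 and Cxcl1 were 2.79-fold and 2.16-fold lower. Il1r2, the decoy receptor of interleukin 1, was 3.23-fold higher (7.72, 7.91 and 7.58 in 3DHL and 5.73, 6.19 and 6.22 in CS hepatocytes; adjusted p = 6.9e-06). The interferon-induced attractants Cxcl10 and Cxcl11 were 1.96-fold and 1.98-fold higher. Il1b and Ccl2 were not called (adjusted p = 0.996 and 0.917).

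Interferon response genes rose in part. Of 36 measured, 11 were higher and none lower, against 12.8% of all genes higher, with a median log2 change of 0.24, and 7 to 11 were higher when single arrays were left out. Gbp2, an interferon-induced GTPase, measured 8.27, 8.01 and 8.81 in 3DHL hepatocytes, against 6.70, 6.58 and 6.50 in CS hepatocytes (3.41-fold higher, adjusted p = 2.29e-07). Its relative Gbp4 measured 6.21, 5.63 and 6.43 in 3DHL and 4.17, 4.18 and 4.02 in CS hepatocytes (3.91-fold higher, adjusted p = 9.03e-08). Rsad2, the antiviral enzyme viperin, measured 7.58, 8.23 and 7.74 in 3DHL and 5.85, 6.25 and 5.75 in CS hepatocytes (3.73-fold higher, adjusted p = 2.76e-05). None of these 3 genes had overlapping arrays, whereas Oas1a (adjusted p = 0.426), Mx1, Mx2 and Ifit1 of the same response were not called. The other probe set of Mx2 was called lower. Of the class I molecules that interferons raise, RT1-CE5 was 3.84-fold higher, and of the class II pathway RT1-DMa was 4.07-fold lower.

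Promoters of interferon response genes were searched for GAAANNGAAA, the core of the interferon-stimulated response element that IRF and STAT complexes bind, in the same window and on both strands. Of the 36 genes, 29 had a promoter in the table, and 19 of these held the motif, as did 3.92% of all windows. It was present in 7 of 10 promoters of genes that were higher in 3DHL and in 12 of 19 promoters of genes not called. Upstream stretches of 60 bases are shown for the 3 largest rises, for Ifi44 (1.98-fold higher) and for Oas1a, which was not called, with the motif in capitals (its reverse complement where it lies on the other strand, and 2 overlapping matches in Oas1a).
Gbp4 (chr2:233978426-233978485, plus strand): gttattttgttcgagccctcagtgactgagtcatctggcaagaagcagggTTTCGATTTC
Rsad2 (chr6:48788233-48788292, minus strand): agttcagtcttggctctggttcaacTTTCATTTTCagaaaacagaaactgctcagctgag
Gbp2 (chr2:234005667-234005726, plus strand): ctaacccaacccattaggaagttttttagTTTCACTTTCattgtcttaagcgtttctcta
Ifi44 (chr2:243303841-243303900, minus strand): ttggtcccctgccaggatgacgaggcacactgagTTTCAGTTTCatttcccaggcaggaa
Oas1a (chr12:41330406-41330465, plus strand): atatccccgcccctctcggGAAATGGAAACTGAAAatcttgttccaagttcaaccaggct
The motif was thus found both at genes called higher and at genes not called.

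Of 59 actin and focal adhesion genes, 14 were higher and 3 lower in 3DHL hepatocytes (23.7% and 5.08%, against 12.8% and 9.03% of all genes), with a median log2 change of 0.13. Lcp1, an actin-bundling plastin, measured 7.94, 8.41 and 8.20 in 3DHL hepatocytes, against 5.21, 6.12 and 5.56 in CS hepatocytes (5.88-fold higher, adjusted p = 7.54e-08). Ezr, ezrin, which links actin to the apical membrane, measured 11.49, 11.23 and 11.46 in 3DHL and 9.66, 9.63 and 9.46 in CS hepatocytes (3.51-fold higher, adjusted p = 3.7e-07). All arrays of 3DHL hepatocytes lay above those of CS in both genes. The 3 lower members were Actg2, Cnn1 and Myl9, which belong to contractile cells and stood highest in CS replicate 1 as described above. Ptk2, focal adhesion kinase, was not called (adjusted p = 0.411). Of 22 tubulin and intermediate filament genes, 8 were higher and 1 lower (36.4% and 4.55%), led by Nes (nestin, 3.83-fold higher) and Tubb2b (2.52-fold higher).

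YAP and TEAD target genes, which respond to cell spreading and tension, were higher for 6 of 19 members and lower for 1. These shares were 31.6% and 5.26%, against 12.8% and 9.03% of all genes. Ankrd1 measured 8.85, 9.34 and 8.85 in 3DHL hepatocytes, against 7.55, 7.28 and 6.78 in CS hepatocytes (3.51-fold higher, adjusted p = 7.97e-05). F3, tissue factor, was 2.54-fold higher, while Ccn2 and Axl were not called (adjusted p = 0.113 and 0.982).

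Matrix genes gave no common direction, with 7 of 63 higher and 8 lower (11.1% and 12.7%, against 12.8% and 9.03% of all genes). Their median log2 change was -0.14. Fn1, fibronectin, and Col4a1, a basement membrane collagen, were not called (adjusted p = 0.943 and 0.975). Ltbp1, which stores latent TGF-beta, was 2.10-fold higher and Tgfb2 2.23-fold higher, while Tgfb1 was not called (adjusted p = 0.231). Itga1, a collagen-binding integrin chain, measured 8.88, 8.74 and 8.87 in 3DHL hepatocytes, against 10.10, 9.92 and 10.02 in CS hepatocytes (2.27-fold lower, adjusted p = 3.87e-05), and its partner chain Itgb1 was not called (adjusted p = 0.837). The hyaluronan list, which bears on the hyaluronic acid of the 3DHL film, had 9 of 25 genes lower (36%) and none higher. With single arrays left out, 6 to 8 were lower. The largest falls were Acan, Tnfaip6 and Itih2 (2.56-fold, 1.88-fold and 1.83-fold lower). Acan measured 9.56, 7.66 and 8.59 in CS hepatocytes and was highest in replicate 1, as was Actg2. The hyaluronan receptor Cd44 (adjusted p = 0.0868) and the synthase Has2 (adjusted p = 0.268) were not called, although the other probe set of Cd44 was called higher.

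At cell junctions, 6 of 37 genes were lower and 4 higher (16.2% and 10.8%, against 9.03% and 12.8% of all genes). Cldn4, a tightening claudin of ducts, measured 10.96, 10.93 and 10.95 in 3DHL hepatocytes, against 8.96, 9.47 and 9.50 in CS hepatocytes (3.11-fold higher, adjusted p = 1.68e-05). Ocln, occludin, was 1.64-fold higher and Cldn2 lower as given above, and Cdh1 and the gap junction gene Gjb1 were not called (adjusted p = 0.211 and 0.401).

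Of 37 proliferation genes, 8 were higher and 1 lower (21.6% and 2.7%, against 12.8% and 9.03% of all genes). Mcm6 and Mcm7, subunits of the replicative helicase, were 1.85-fold and 1.72-fold higher, and Ccnd1, cyclin D1, measured 11.97, 12.06 and 12.21 in 3DHL and 11.51, 11.10 and 11.33 in CS hepatocytes (1.70-fold higher, adjusted p = 0.000705). The lower gene was Tk1, thymidine kinase, which supplies nucleotides for DNA synthesis (1.27-fold lower, adjusted p = 0.0157). Its call was lost without 3DHL replicate 3, without CS replicate 3 and when its probe sets were averaged. Of its 2 other probe sets, 1 was called higher and none lower. Mki67, a marker of dividing cells, was not called (adjusted p = 0.645), nor were Top2a, Cdk1 and Ccnb1. Among 30 hypoxia genes, 4 were higher and 6 lower (13.3% and 20%). Ndrg1, a stress gene of differentiating epithelia, was 6.02-fold higher and Adm, the vasodilator adrenomedullin, 3.65-fold higher, whereas Car9 and Slc2a1 were not called (adjusted p = 0.978 and 0.271).

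Of 48 genes for signals between hepatocytes and sinusoidal endothelium, 9 were higher and 7 lower (18.8% and 14.6%, against 12.8% and 9.03% of all genes). The receptor Notch1 measured 8.52, 8.30 and 8.52 in 3DHL hepatocytes, against 6.83, 7.34 and 7.06 in CS hepatocytes (2.59-fold higher, adjusted p = 3.89e-07). Its ligand Jag1 was higher by 0.89 on the log2 scale, and the growth factor Pdgfc was 2.32-fold higher. Fgfr2 was 3.46-fold lower and Wnt4 2.18-fold lower. Vegfa, the main growth factor of endothelium, differed little (1.29-fold lower, adjusted p = 0.0339) and lost its call when any single array other than CS replicate 2 was left out. Met and Egfr, receptors of HGF and EGF on hepatocytes, were not called (adjusted p = 0.0527 and 0.38).

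Further lists are given beside the shares of all genes, 12.8% higher and 9.03% lower. Of 35 matrix proteases and inhibitors, 8 were higher and 2 lower, led by Adamts5, an aggrecan-cleaving protease, at 3.63-fold higher and Adam8 at 2.24-fold higher, although its other probe set was called lower. Of 32 genes of endoplasmic reticulum stress and heat shock, 5 were higher and 5 lower (15.6% each), with a median log2 change of -0.03. Ddit3, a factor of the stress response, was 2.02-fold higher and Edem1, which removes misfolded glycoproteins, 1.88-fold lower, while the chaperone Hspa5 was not called (adjusted p = 0.196). Of 18 iron genes, 6 were lower and 1 higher, and the iron hormone Hamp was not called (adjusted p = 0.0554). Of 38 genes of the TGF-beta pathway, 7 were higher and 5 lower (18.4% and 13.2%; median log2 change -0.02), with Inhbb, an activin subunit, at 2.72-fold higher and Fst, the activin inhibitor follistatin, at 1.77-fold lower. Among 16 housekeeping genes, Rplp0 and Tubb5 were called higher (1.22-fold and 1.63-fold) and none was lower. The call of Rplp0 was lost without any single array, with the replicate block and after centring on housekeeping genes.

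The levels of other cultures were set beside these values as a description, since they enter no test here. Cps1 averaged 11.71 ± 0.06 in 3DHL, 12.84 ± 0.05 in HM, 11.99 ± 0.14 in 3DHLK and 13.67 ± 0.01 in CS hepatocytes (SD, n = 3 each). Insig1 averaged 10.47 ± 0.23 in 3DHL, 10.29 ± 0.18 in HM, 10.46 ± 0.21 in 3DHLK and 12.14 ± 0.26 in CS hepatocytes, so that CS was the culture that stood apart. The cholesterol list averaged 9.72 in 3DHL, 9.66 in HM, 9.65 in 3DHLK and 10.46 in CS hepatocytes. In the same order, the amino acid list averaged 9.83, 10.01, 9.98 and 11.01, and lipogenesis 9.53, 9.47, 9.78 and 10.33. Liver-enriched transcription factors averaged 8.89, 8.83, 8.89 and 9.23. Coagulation and complement genes averaged 10.02, 10.58, 10.50 and 11.03, with HM and 3DHLK between the 2 groups compared. Fos averaged 6.42 ± 0.51 in 3DHL, 10.05 ± 0.06 in HM, 7.87 ± 0.40 in 3DHLK and 11.27 ± 0.24 in CS hepatocytes, with both 3D models below both other cultures. Cyp1a2 and Gclc were high in hepatocytes of both 3D models. Gclc averaged 10.69 ± 0.03 in 3DHL and 10.64 ± 0.16 in 3DHLK, against 9.49 ± 0.08 in HM and 9.46 ± 0.09 in CS hepatocytes. In LSECs of the 3DHL model, Gclc and Cyp1a2 averaged 9.24 and 7.62. Ankrd1 averaged 9.02 ± 0.29 in 3DHL, 9.91 ± 0.04 in HM, 8.91 ± 0.45 in 3DHLK and 7.20 ± 0.39 in CS hepatocytes.

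The LSEC fraction of the 3DHL model did not stand apart by its markers as its label would have it. Its 3 arrays averaged 12.85 over the hepatocyte markers, against 12.70 in 3DHL hepatocytes and 13.23 in CS hepatocytes, and 6.37 over the endothelial markers, against 6.16 in 3DHL and 6.47 in CS hepatocytes. Several genes that were lower in the hepatocyte fraction than in CS were high in the bead-bound fraction, with Rbp7 at 12.56 and Cyp2c23 at 12.05 on average, against 9.98 and 8.69 in 3DHL hepatocytes and 13.43 and 11.89 in CS hepatocytes. The part of the separation step in the differences reported here was not tested.

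**Figure D5:**
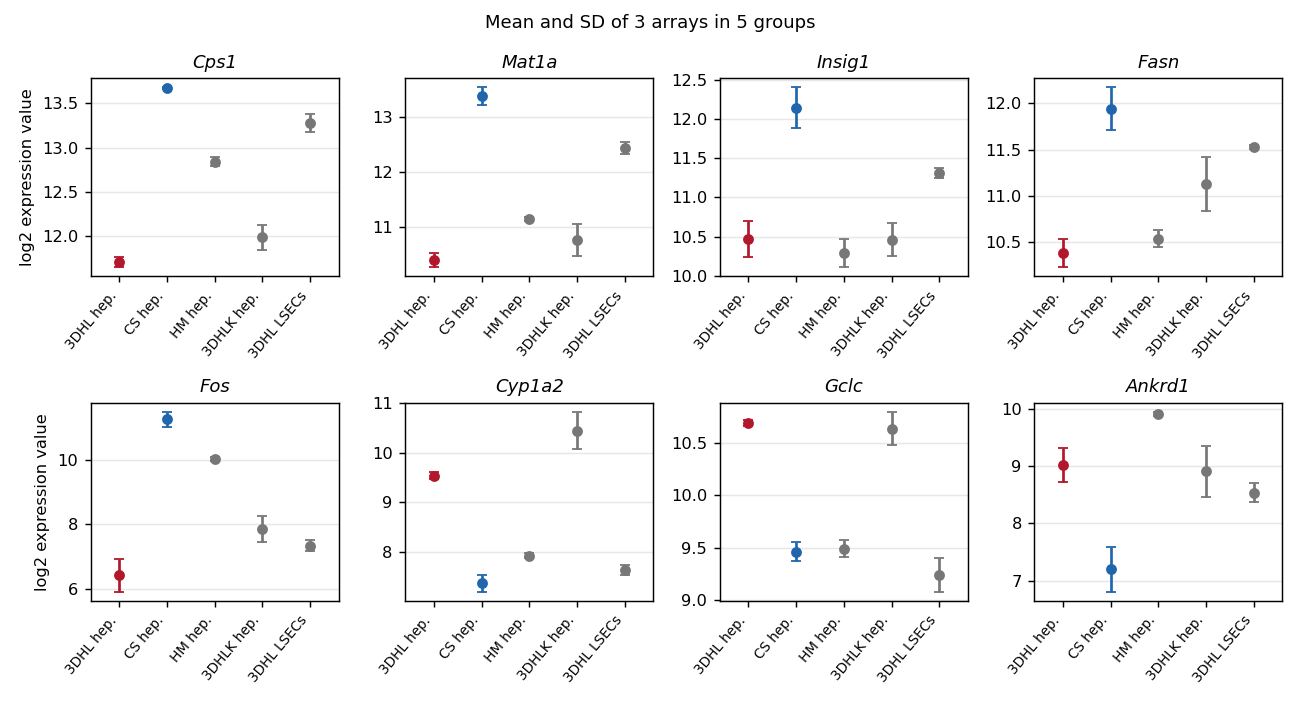
Mean log2 expression value (vertical axis, scale differs by panel) of 8 genes in 3DHL hepatocytes (red), CS hepatocytes (blue) and, in grey, HM hepatocytes, 3DHLK hepatocytes and 3DHL LSECs; bars are the SD of 3 arrays. Cps1, Mat1a, Insig1, Fasn and Fos are highest in CS, Cyp1a2 and Gclc are highest in hepatocytes of the 3D models, and Ankrd1 is lowest in CS.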

How the data were processed

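RNA of 23 samples, of which those of a 3D model are cell fractions separated from it, was amplified and hybridised to Affymetrix Rat Genome arrays, 1 channel each. The authors normalised the scanner data by robust multi-array average (RMA) in R and deposited log2 expression values, which were used without further scaling. No version of the RMA software was found in the labels or methods (not given in the sources used here). Because RMA borrows across arrays and compresses low and very high signals, fold changes of dim and of saturated probe sets can be understated. The deposited values hold no detection calls.

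Of 31099 probe sets, 57 controls were left out, 20826 named 1 gene, 436 named several and 9780 named none in the platform annotation. Each of 14217 genes was represented by its brightest probe set, judged by the mean across the arrays, and 4525 genes had more than 1. Group means of all 8 groups were fitted with limma 3.58.1 in R 4.3.3, so that all 23 arrays shared 1 estimate of the spread. The contrast was 3DHL minus CS hepatocytes, and two-sided p-values were adjusted by the Benjamini-Hochberg method with a threshold of 0.05. On simulated data with 50 changed genes per size, the fit called 26% of genes at a log2 change of 0.5, 92% at 1.0, 100% at 1.5 and 98% at 2.0, and 1.86% of calls were false. The simulation used independent normal noise, 1 spread per gene for all groups and few changed genes. In the data 21.8% of genes were called, and some genes varied together between arrays of a group. The simulated shares therefore check the fit and are not estimates for this comparison.

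The comparison, the genes and the 46 gene lists (1336 of 1491 written members measured) were chosen with earlier results of these data known. Named genes were the 15 largest rises and falls without overlap of arrays (uncharacterised loci skipped), the 3 largest called rises and falls of each list, key members fixed for each list, called or not, and the 2 highest members of each marker list. Other list members are named from their list, and the genes described as examined after their values had been seen stand outside this rule. Promoter windows were taken from RefSeq (GRCr8).

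Alternatives were other sets of arrays in the fit, a replicate block, the mean of all probe sets, removal of the dimmest genes (below percentile 30 by mean level), cyclic loess, quantile normalization, centring on housekeeping genes, a trended and robust prior, array weights and leaving out each array.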

Additional observations from a re-analysis of the deposited data

How the results depend on the processing

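With all arrays, 1819 genes were higher and 1284 lower in 3DHL hepatocytes, and both counts depended on which arrays set the spread. The lower genes numbered 2198 with the 6 compared arrays alone, 2246 with the 12 hepatocyte arrays, 2384 without the KC monolayers and 4469 with array weights, whose estimation stopped before convergence. The higher genes numbered 2794 without the KC monolayers and 4351 with array weights. A fit of the 6 arrays with replicate number as a block gave 2376 higher and 1950 lower genes. Deviations of same-numbered arrays correlated at 0.06, -0.08 and 0.16, and those of differently numbered arrays at -0.20 to 0.06. With 3 arrays per group, these values cannot decide whether same-numbered arrays share an isolation or batch. Leaving out single arrays gave 1218 to 1655 higher and 880 to 1044 lower genes, with 55.0% to 61.3% of called genes higher. This share was 58.6% with all arrays and 42.9% after centring on housekeeping genes, which moved the median log2 change of all genes to -0.10. When the probe sets of each gene were averaged, Kdr had a log2 change of 0.83 in place of -0.17, and Synm one of 0.00 in place of -0.52. The cause was not tested. Of 228 called genes among the 295 named, 46 lost the call when at least 1 of the 6 arrays was left out, and 33 under at least 1 of the other alternatives apart from array weights. Precision is limited by 3 arrays per group, and no detection calls mark dim genes, so a gene that was not called cannot be taken as unchanged.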

Other observations

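Genes of 4 further groups were chosen after their values had been seen, and their counts are descriptions. Of 23 lysosome genes, 16 were called higher and none lower in 3DHL hepatocytes, against 12.8% of all genes called higher. Gpnmb, a lysosomal glycoprotein, measured 11.68, 11.82 and 11.73 in 3DHL hepatocytes, against 9.10, 9.03 and 9.11 in CS hepatocytes (6.32-fold higher; adjusted p = 3.13e-11, limma). Lgals3, galectin-3, which binds damaged lysosomes, measured 12.84, 13.15 and 12.93 in 3DHL and 10.89, 10.30 and 10.73 in CS hepatocytes (5.02-fold higher). In both genes every 3DHL array lay above every CS array. The peptidase Dpp7 was 4.36-fold higher, Rragd, a GTPase of the lysosomal surface, 4.02-fold higher, and Grn, progranulin, 2.49-fold higher. Tfeb, a transcription factor of lysosomal genes, was not called (log2 change -0.25, adjusted p = 0.148). Cd68, a lysosomal membrane protein that was among the macrophage markers called higher, was 2.07-fold higher.

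The methionine adenosyltransferases moved in opposite directions. Mat2a, the form of proliferating and extrahepatic cells, measured 10.99, 10.81 and 10.72 in 3DHL hepatocytes, against 9.23, 8.14 and 8.40 in CS hepatocytes (4.76-fold higher, adjusted p = 5.07e-07), while Mat1a was 7.89-fold lower. Mat2b, the regulatory subunit, was 1.59-fold higher and lost its call without 3DHL replicate 3 or CS replicate 1. Of 20 genes of retinoid handling, 3 were higher and 6 lower, against 12.8% and 9.03% of all genes. Beside Sdr16c5 and Aldh1a1, Crabp2, a carrier of retinoic acid, was 2.69-fold higher, whereas Rarb, a retinoic acid receptor that retinoic acid itself induces, measured 6.65, 6.98 and 7.11 in 3DHL and 9.14, 9.49 and 9.48 in CS hepatocytes (5.49-fold lower, adjusted p = 8.87e-09). Of 6 genes of caveolae, the membrane pits coated by caveolins, Cav1, Cav2 and Cavin2 were higher (7.65-fold, 3.66-fold and 2.83-fold) and none was lower. Over all genes, 12.8% were higher and 9.03% lower. Cavin2 measured 8.13, 7.24 and 8.99 in the 3DHL arrays, in the same replicate order as Efemp1.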
